A study of Mus musculus with 3 samples.

Results

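Lysosomal proteases and their partners were followed as 9 genes: the cathepsins Ctsa, Ctsb, Ctsd, Ctsl, Ctss and Ctsz, the lysosomal membrane protein Lamp1, the protease legumain (Lgmn) and the secreted inhibitor cystatin C (Cst3). They were taken by symbol, 9 of the 32285 genes in the count matrices, and all 9 were present once. The immune cells came from primary 4T1-luc mammary tumors, a mouse triple-negative breast cancer line grown in the mammary fat pad of female BALB/c mice aged 6 to 8 weeks at implantation. The vehicle library came from tumors of p38α wild-type 4T1-luc cells in mice given DPBS, and the p38i library from the same cells in mice gavaged daily with LY2228820 (ralimetinib, a p38 kinase inhibitor) at 30 mg/kg, both from day 4 for 10 days. The p38KO library came from mice bearing the CRISPR clone p38a-KO-H9, for which no vehicle or drug dosing is listed. The deletion thus lay in the tumor cells of a single clone and not in the host cells sequenced. Tumors from 3 mice were pooled per group at day 14, and live CD45+ cells were sorted and sequenced as 1 library. So p38i differed from vehicle by a drug given to the whole animal. The p38KO library differed from vehicle by the tumor line, and by the lack of gavage if those mice were given none.

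Lysosomes are acid compartments in which proteins taken up or retired by a cell are cut to pieces. Cathepsins B, L, S and Z are cysteine proteases, cathepsin D is an aspartic protease and cathepsin A a serine carboxypeptidase that also shields other lysosomal enzymes, while legumain cuts after asparagine and trims several cathepsins to their mature forms. Macrophages are rich in these enzymes, cathepsin S and legumain also take part in preparing peptides for MHC class II, and cystatin C, which is abundant in classical dendritic cells, blocks cysteine cathepsins outside the cell. Many lysosomal genes carry an E-box, the letters CACGTG, that factors of the TFEB family bind.

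The promoters of these genes were searched for this E-box, and no link between it and the levels described below was tested. In RefSeq windows on GRCm38.p6, from 250 bases before to 50 bases after a start site, 8 of the 9 genes had at least 1 window, and 5 of these 8 (Ctsa, Ctsd, Ctsl, Lamp1 and Lgmn) held CACGTG, a palindrome that reads alike on both strands. The same letters stood in 7.15% of 32851 mouse promoter windows. The stretches around these E-boxes, with each CACGTG in capitals and all else in lower case, read 5′ to 3′ on the strand of the gene:
Ctsa, chr2:164833741-164833803, plus strand: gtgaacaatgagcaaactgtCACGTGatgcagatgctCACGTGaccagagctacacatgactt
Ctsd, chr7:142387900-142387945, minus strand: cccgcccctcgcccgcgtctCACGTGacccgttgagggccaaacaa
Ctsl, chr13:64370731-64370770, minus strand: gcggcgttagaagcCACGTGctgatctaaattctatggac
Lamp1, chr8:13159080-13159171, plus strand: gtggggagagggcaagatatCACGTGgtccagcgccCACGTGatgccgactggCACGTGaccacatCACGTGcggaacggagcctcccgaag
Lgmn, chr12:102439116-102439161, minus strand: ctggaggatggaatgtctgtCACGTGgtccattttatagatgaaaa
The Lamp1 window held 4 copies, the first beginning 61 and the last 15 bases before the start site, and 8 of all windows (0.0244%) held at least that many. Ctsa held 2 copies, and 0.594% of windows held at least that many. The Ctsd E-box shown began 98 bases before the start, with another 245 bases before it, that of Ctsl 236 and that of Lgmn 49 bases before it. The longer core TCACGTGA, which contains CACGTG, was found for Ctsa and Ctsd and in 0.974% of windows, and the overlapping GTCACGTG, read on both strands, for Ctsa, Ctsd, Lamp1 and Lgmn and in 2.25%. GAGGAAGT, a core bound by the myeloid factor PU.1, was found on either strand for Ctss and in 3.20% of windows. These are matches of letters in a window and were set against no binding data.

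Of the 16143 barcodes, 12472 passed the filters (at least 1500 UMIs, at least 300 genes and at most 20% mitochondrial counts), with a median depth of 3162 UMIs for vehicle, 3038 for p38i and 3317 for p38KO. Values given below in threes follow this order of libraries. UMIs are the random tags that count each captured transcript once. Between 5 and 9 barcodes were shared by any pair of libraries. Cells were gated on raw counts of a few genes: macrophages on C1qa, monocytes on Ly6c2 and Fn1, and dendritic cells (DC) on Flt3. Neutrophils were gated on Csf3r and Cxcr2, and T cells on Cd3e. The gates did not overlap, but they did not shut out all of each other's genes. The macrophage gate set no limit on Csf3r, Cxcr2, Ly6c2 or Fn1, and the DC and T gates set none on Ly6c2 or Fn1. Monocytes and neutrophils were parted by which summed pair was larger. The gates held 174, 189 and 563 macrophages, 475, 774 and 400 monocytes, 41, 78 and 71 DC, 1755, 2080 and 1543 neutrophils, and 524, 622 and 503 T cells, with 20.2% to 22.3% of cells left ungated. Markers that no gate used were summed per gate. Over 8 macrophage markers, the macrophage gate reached 18334, 21479 and 30254 CPM (counts scaled to 1000000 UMIs). The monocyte gate reached 3859, 3169 and 3995 CPM of these and the T gate 97.6, 77.0 and 175. Summed over 8 DC markers, the DC gate reached 1556 to 2257 CPM and the macrophage gate 8.04 to 10.3. The monocyte gate was less clean, with 15802, 15341 and 16845 CPM of 8 monocyte markers beside 10260, 9287 and 3329 of 8 neutrophil markers. Of the monocyte markers, Ly6a was higher in DC (549, 367 and 688 CPM) than in monocytes (97.7, 78.4 and 188). Levels below are the CPM of UMIs summed over a gate. Brackets hold exact 95% intervals, which cover counting error only, since there was no replicate library and no test between groups could be made.

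Macrophages carried the highest level of 6 of the 9 genes, Ctsa, Ctsb, Ctss, Ctsz, Lamp1 and Lgmn, in every library, and the 3 libraries' macrophage levels of each lay above all 3 of their monocyte levels. Legumain had the widest gap to monocytes: 1423, 1308 and 1748 CPM in macrophages against 500, 411 and 450 in monocytes and 70.5, 63.6 and 72.3 in neutrophils. This made Lgmn 2.85 to 3.88 times higher in macrophages than in monocytes and 20.2 to 24.2 times higher than in neutrophils, depending on the library. Cathepsin S stood at 2672, 2781 and 3523 CPM in macrophages, 1.39 to 1.59 times the monocyte level and 10.1 to 12.2 times the neutrophil level. Cathepsin B, with 2356, 1975 and 2736 CPM in macrophages, was 1.43 to 1.92 times the monocyte level and 2.63 to 2.71 times that of neutrophils. Cathepsin Z (1678, 1582 and 1852 CPM in macrophages) was 1.77 to 2.21 times higher than in monocytes, cathepsin A (603, 563 and 661 CPM) 1.41 to 2.08 times, and Lamp1 (776, 786 and 877 CPM) 1.22 to 1.47 times.

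**Figure D1:**
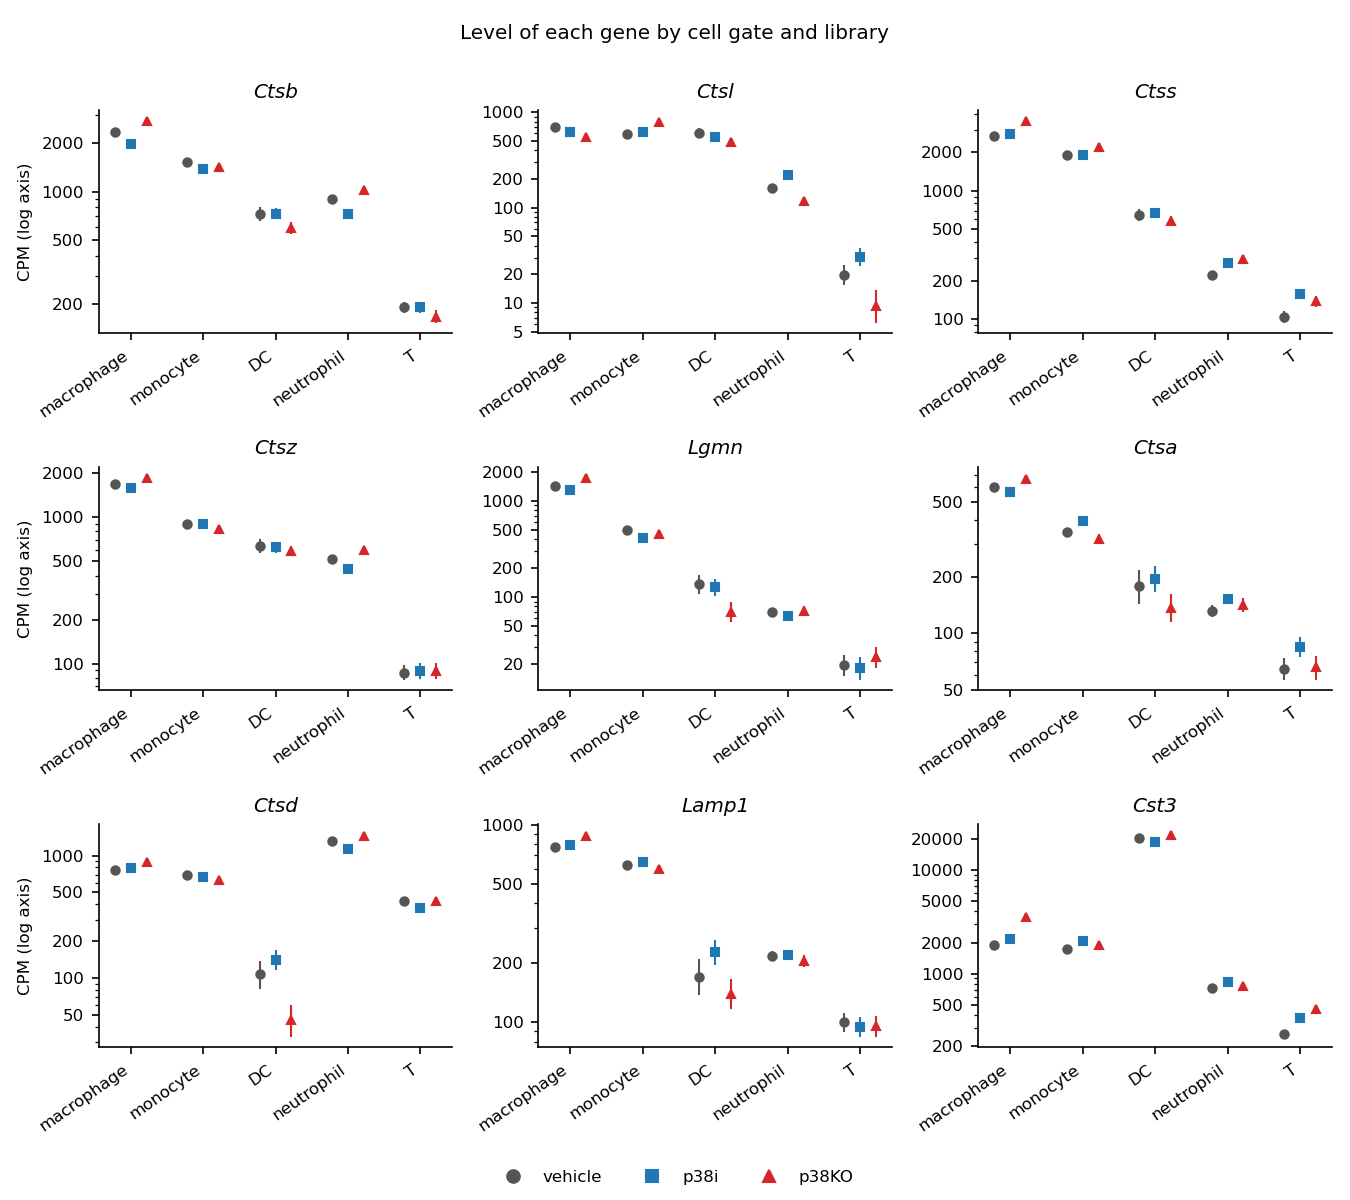
Level of each of the 9 genes in CPM (log axis, range set per panel) in the macrophage, monocyte, DC, neutrophil and T gates (x axis), with 1 point per library (grey circle vehicle, blue square p38i, red triangle p38KO) and exact Poisson 95% intervals as bars. For 6 genes the macrophage points stand highest, while Ctsd is highest in neutrophils (1129 to 1459 CPM) and Cst3 in DC (18861 to 21943 CPM).

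The other 3 genes had their own order. Cathepsin D was highest in neutrophils, at 1306, 1129 and 1459 CPM, 1.44 to 1.70 times the macrophage level, and lowest in DC, at 107, 141 and 45.2 CPM. T cells held 428, 371 and 428 CPM of Ctsd, more than DC in each library. Cystatin C marked DC, at 20517, 18861 and 21943 CPM, 6.17 to 10.9 times the macrophage level and 48.5 to 78.5 times the T-cell level. Cathepsin L separated no gate at the top: its levels in macrophages (707, 622 and 556 CPM), monocytes (586, 623 and 798) and DC (612, 547 and 490) overlapped, with neutrophils at 161, 220 and 119 and T cells at 19.8, 30.6 and 9.40. Summed, the 9 genes made up 1.29%, 1.26% and 1.64% of macrophage UMIs, 0.884%, 0.895% and 0.916% of monocyte UMIs, 0.425%, 0.407% and 0.467% of neutrophil UMIs and 0.127%, 0.141% and 0.147% of T-cell UMIs. The DC share, 2.21% to 2.46%, was mostly Cst3.

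Lgmn was detected in most macrophages and few T cells. With every cell thinned to 1500 UMIs, 75.3%, 74.6% and 84.2% of macrophages had an Lgmn UMI, against 3.44%, 2.57% and 4.17% of T cells, of which 1.91%, 0.804% and 3.18% had a C1qb UMI. Without thinning, the macrophage shares were 94.3%, 96.3% and 95.9% and the T-cell shares 8.02%, 6.43% and 10.5%, at median depths of 17604.5, 16826 and 13362 UMIs per macrophage and 5101.5, 3966 and 4721 per T cell. Macrophage transcripts that T cells should lack were read beside these: the T gate's C1qb level was 0.12% to 0.47% of the macrophage level. The T gate allowed at most 1 C1qa UMI, so the gate itself limited C1q transcripts. The C1qb and C1qc shares may therefore understate the background. Its Lgmn level was 1.36% to 1.38% of the macrophage level, its Ctsl 1.69% to 4.93%, its Lamp1 10.9% to 12.9%, its Cst3 12.7% to 17.1% and its Ctsd 47.2% to 55.8%. All 9 genes were above this gate-limited C1qb share in T cells, with Lgmn and Ctsl nearest to it. Lyz2, a transcript of myeloid cells, stood at 1.85%, 4.81% and 0.988% of its macrophage level in the T gate. That was above Lgmn in vehicle and p38i but below it in p38KO. C1qc (0.33%, 0.19% and 0.67%), Apoe (0.67%, 0.42% and 0.57%) and Trem2 (0.46%, 1.18% and 0.69%) lay below Lgmn in every library. Whether Lgmn in T cells is background was not tested.

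Genes whose levels followed the members over the 15 sums (5 gates in 3 libraries) were sought among 2806 genes reaching 100 CPM in any sum. Nearest to the members' mean profile were Laptm4a, a lysosomal membrane protein (Pearson r = 0.97), Asah1, the lysosomal acid ceramidase (0.97), Trf (0.96), Nrros (0.96), Cd68, a lysosomal membrane glycoprotein of macrophages (0.96), Blvrb (0.95), Csf1r, the receptor that maintains macrophages (0.95), Cyba (0.95), Rab1a (0.95) and Cxcl9 (0.95). Each of 7 members followed the mean of the other 8 with r from 0.87 (Ctsl) to 0.97 (Ctsa and Ctsb), whereas r was 0.11 for Ctsd and 0.33 for Cst3. The closest single genes were Rtn3 and Gbp7 for Ctsd, Naaa and Lifr for Cst3, Cybb and Gpx1 for Ctsl, Tmem106a and Dab2 for Ctss, Nrros and Creg1 for Ctsz, Rab1a and Nrros for Ctsb, Adam15 and Csf1r for Lamp1, and Blvrb and Mfsd1 for both Ctsa and Lgmn. The 15 sums shared 3 libraries and 5 gates, so these are descriptions of gate patterns.

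Systemic p38 blockade and p38 loss in the tumor cells were then compared with vehicle within each gate, as the log2 ratio of CPM; both comparisons share the vehicle library. A difference was counted when it reached 0.5 (1.41-fold) either way with at least 100 counts, a limit on size alone. In macrophages of the p38KO library, 8 of the 9 genes were above vehicle with intervals above 0, and Ctsl was below. The median log2 ratio of the 9 was 0.21, against 0.03 over 8195 genes, of which 54.4% were above vehicle. Only Cst3 passed the size limit, while 9.52% of all genes did so upward and 12.6% either way. Cst3 stood at 1887 CPM in vehicle, 2176 in p38i and 3559 in p38KO macrophages, a log2 ratio of 0.92 (0.88 to 0.95) for p38KO and 0.21 (0.16 to 0.25) for p38i. The p38KO library was the one that stood apart, with vehicle and p38i close together. The median macrophage held 17.3, 20.5 and 33.3 Cst3 UMIs per 10000, and the cell at the 90th percentile 31.2, 36.1 and 70.7 in vehicle, p38i and p38KO. The sum of the 8 macrophage markers was also higher, 18334 CPM in vehicle and 30254 in p38KO, with Apoe its largest part (10880 and 20783 CPM). The others differed unevenly, with C1qb at 3386 and 4048 CPM, Ms4a7 at 213 and 545 and Mertk at 24.3 and 27.4. The part of these markers in the Cst3 difference was not tested. DC markers in that gate summed to 10.3 CPM in vehicle and 8.04 in p38KO.

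The other members in p38KO macrophages differed less. Cathepsin S was 0.40 (0.37 to 0.43) above vehicle, Lgmn 0.30 (0.25 to 0.34), Ctsb 0.22 (0.18 to 0.25), Ctsd 0.21 (0.15 to 0.28), Lamp1 0.18 (0.11 to 0.24), Ctsz 0.14 (0.10 to 0.19) and Ctsa 0.13 (0.06 to 0.20). Cathepsin L was the exception at -0.35 (-0.42 to -0.28), with 707, 622 and 556 CPM. In p38i macrophages no member reached the limit, which 6.27% of all genes did, and the median was -0.09 against -0.01 over 6335 genes. That median was 0.0033 with every cell thinned to 1500 UMIs and 0.28 as the mean of log2(CPM + 1) over cells, so its side of 0 depends on the processing. Cathepsin B was lowest there, at -0.25 (-0.30 to -0.21), followed by Ctsl at -0.19 (-0.27 to -0.10), Lgmn at -0.12 (-0.18 to -0.06), Ctsa at -0.10 and Ctsz at -0.09. Ctsb was thus below vehicle in p38i and above it in p38KO.

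**Figure D2:**
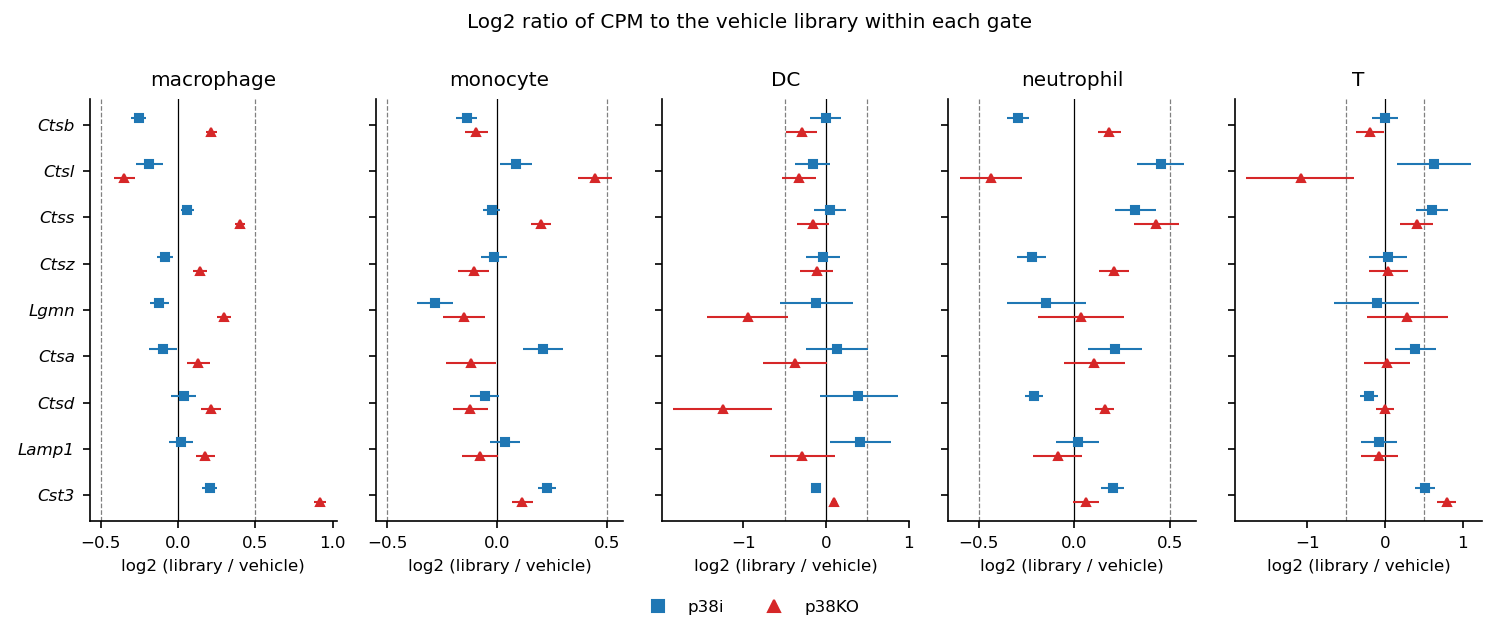
Log2 ratio of CPM to the vehicle library (x axis, range set per panel) for the 9 genes (y axis) in each gate, for p38i (blue squares) and p38KO (red triangles), with exact conditional 95% intervals; dashed lines mark the size limit of 0.5. In p38KO macrophages all genes but Ctsl lie right of 0, with Cst3 at 0.92, while Ctsl lies right of 0 in p38KO monocytes and left of it in the other gates.

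Macrophages were not alike, and the split by C1qa, a complement gene that rises as monocytes mature into tissue macrophages, showed where Cst3 differed. The macrophage gate was divided into cells with under 20, 20 to 50 and over 50 C1qa UMIs per 10000; this split was added after the data were seen. The highest band held 92 of 174 cells (52.9%) in vehicle, 104 of 189 (55.0%) in p38i and 386 of 563 (68.6%) in p38KO. Within that band Cst3 was at 2016, 2382 and 4243 CPM, a log2 ratio of 1.07 (1.03 to 1.12) for p38KO, where 16.5% of all genes passed the limit. In the middle band it was at 1818, 1802 and 1934 CPM, a ratio of 0.09 (0.01 to 0.17), and in the lowest band at 1426, 2250 and 1817 CPM, 0.35 (0.21 to 0.49). The Cst3 difference of p38KO was thus concentrated in C1qa-high cells. Over the 9 genes, the p38KO median in the highest band was 0.23 (0.18 to 0.27), with 8 above vehicle and 1 below. In the middle band it was -0.05 (-0.13 to 0.02), with 4 above and 5 below. In the lowest band it was 0.14 (-0.06 to 0.34), with 6 above and 3 below. The medians over all genes were 0.02, -0.01 and -0.003 in the same order. C1qb differed little within the highest band (4348, 4231 and 4841 CPM), but the cut on C1qa, another C1q gene, itself favors this. Apoe was at 14447, 19015 and 26416 CPM.

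The summed level of cathepsin L ran the other way along the same axis, but its level in the median cell did not. Summed, Ctsl was lower in C1qa-high than in C1qa-low macrophages in all 3 libraries, at log2 ratios between -0.72 and -1.01. The lowest band held only 39, 25 and 63 cells. Its median cell had 4.36, 2.65 and 1.84 Ctsl UMIs per 10000, against 4.93, 4.90 and 4.52 in the highest band. At the 90th percentile these were 22.7, 29.3 and 14.2 against 13.2, 10.1 and 10.4. Summed Lgmn was higher in C1qa-high cells by 1.06, 0.74 and 1.17, Ctss by 0.68, 0.70 and 0.87 and Ctsz by 0.67, 0.37 and 0.65. Many genes differed between these bands, 42.8%, 32.9% and 43.8% of all genes past the limit. The p38KO difference of Ctsl was seen in the middle band, at 838, 613 and 469 CPM and a log2 ratio of -0.84 (-0.98 to -0.70) for p38KO. In the highest band it was -0.08 (-0.18 to 0.02) and in the lowest -0.09 (-0.26 to 0.08); 10.8% of all genes passed the limit in the middle band. Lgmn remained above vehicle by 0.24 (0.19 to 0.30) in the highest and 0.20 (0.10 to 0.30) in the middle band of p38KO, and Ctss by 0.40 (0.36 to 0.44) in the highest but 0.01 (-0.07 to 0.09) in the middle.

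**Figure D3:**
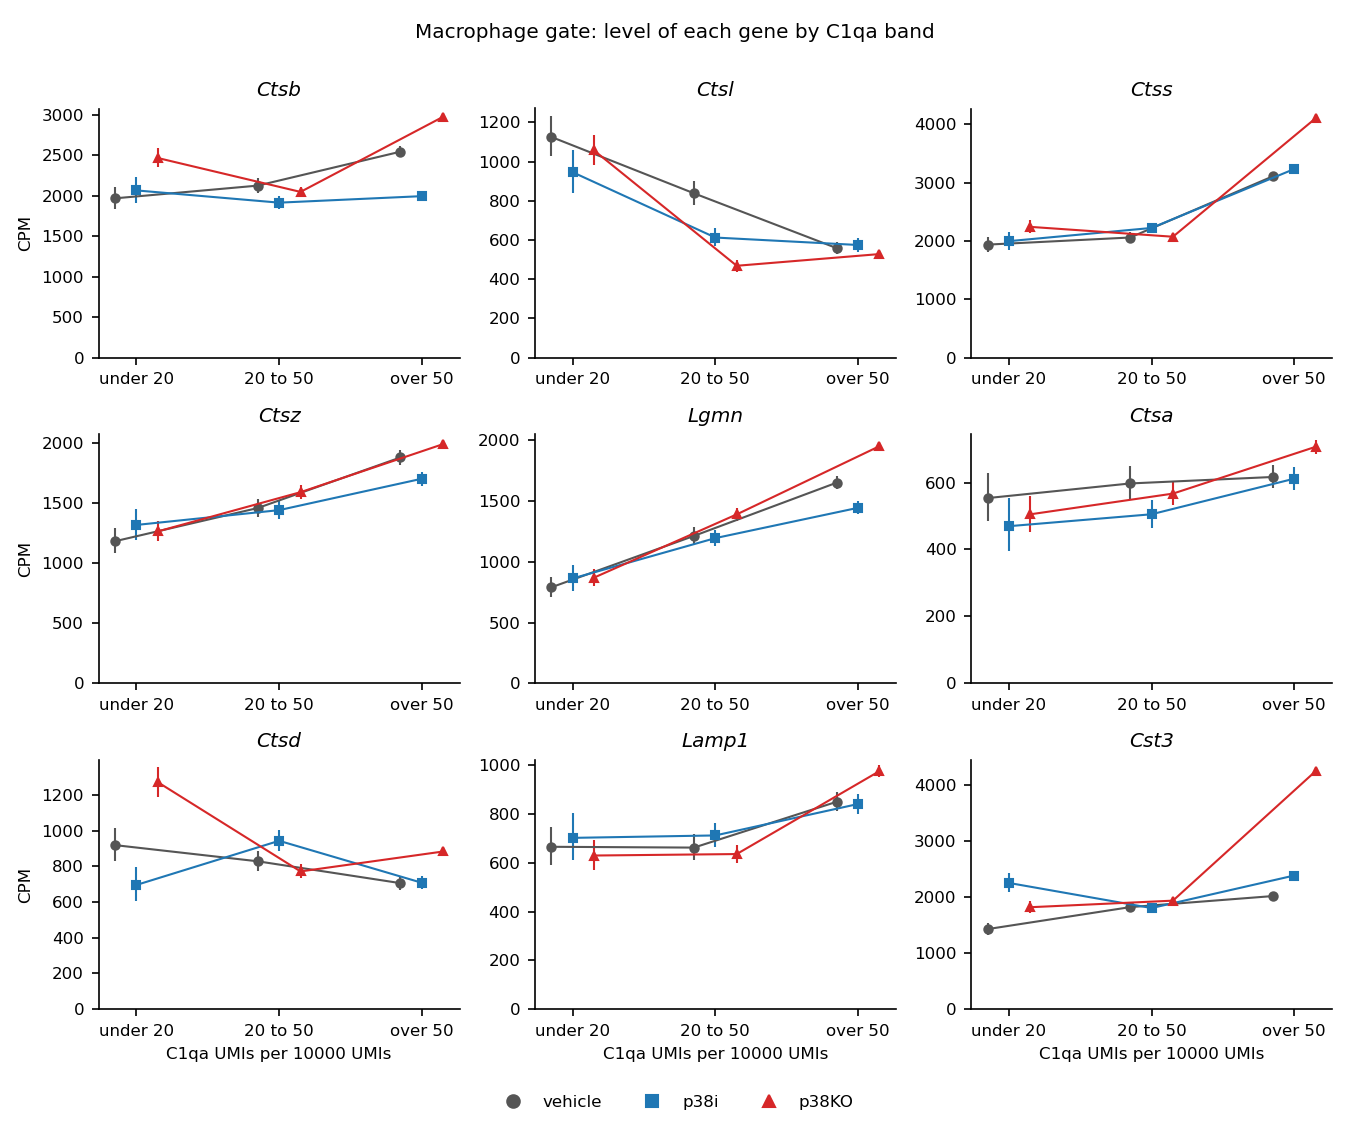
Level in CPM (y axis, from 0) of the 9 genes in macrophages with under 20, 20 to 50 and over 50 C1qa UMIs per 10000 UMIs (x axis), with 1 line per library and exact Poisson 95% intervals. Lgmn and Ctsz climb with C1qa in vehicle, p38i and p38KO, Ctsl is lower in the highest than in the lowest band of each, and Cst3 in the highest band is 4243 CPM in p38KO against 2016 in vehicle.

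Macrophages in cycle, those with a UMI of Mki67 or Top2a, held less of every member than the rest in all 3 libraries. The gap was widest for Ctsd, with log2 ratios of -1.22, -0.87 and -0.72 in vehicle, p38i and p38KO, and for Ctsl, with -1.01, -0.68 and -0.71, and narrowest for Ctsz and Lgmn, at -0.10 to -0.15. Over all genes the median was 0.06, 0.08 and 0.05, and 10.7%, 7.43% and 6.94% of genes were lower past the limit. Such cells made up 32.2%, 24.9% and 36.1% of the gate and were deeper, with a median of 28190.0 UMIs against 14055.5 in vehicle; the part of depth was not tested. Cst3 of p38KO was above vehicle in both, by 0.97 in cells with and 0.88 in cells without these transcripts.

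In monocytes none of the 9 members passed the size limit in either comparison, against 6.92% of all genes in p38i and 9.62% in p38KO, and the medians were -0.01 and -0.09 (0.02 and 0.06 over all genes). The widest difference was Ctsl in p38KO, at 586, 623 and 798 CPM, a log2 ratio of 0.45 (0.37 to 0.52) for p38KO. Vehicle and p38i were close and p38KO stood above both, whereas in macrophages Ctsl was below vehicle in both p38i and p38KO. As the mean of log2(CPM + 1) over cells the Ctsl difference was -0.47, and with cells thinned to 1500 UMIs 41.7%, 46.6% and 39.5% of monocytes had a Ctsl UMI, so the share of cells did not go with the summed level in p38KO. Transcripts of tumor cells were higher in that gate too, Epcam at 1.81, 0.93 and 47.0 CPM and Krt18 at 2.26, 0.93 and 49.1. The 7 tumor or stroma markers summed to 62.4, 53.0 and 203 CPM. Pecam1 alone was 56.1, 48.5 and 68.1 CPM of these sums, and so most of the vehicle and p38i values. In the 452, 751 and 381 monocytes without a UMI of Epcam, Krt8, Krt18 or Krt19, left after a filter added once the data were seen, Ctsl was at 598, 605 and 809 CPM, 0.44 (0.36 to 0.52) for p38KO. Lgmn was below vehicle in both, p38i at -0.28 (-0.36 to -0.20) and p38KO at -0.15 (-0.25 to -0.06), while Cst3 was 0.23 (0.19 to 0.27) and 0.12 (0.07 to 0.16) above it and Ctss 0.20 (0.16 to 0.25) above it in p38KO.

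The monocyte gate divided clearly by Arg1, the arginase of suppressive and tissue-remodelling myeloid cells, a split also added after the data were seen. Monocytes with at least 2 Arg1 UMIs made up 32.6%, 34.0% and 37.2% of the gate. They held 1036, 1070 and 1571 CPM of Ctsl against 345, 388 and 309 in monocytes without Arg1, log2 ratios of 1.59, 1.46 and 2.35. Lgmn, at 880, 644 and 836 CPM against 276, 288 and 189, was higher by 1.67, 1.16 and 2.14, Ctsb by 1.20, 1.02 and 1.37 and Ctsd by 0.90, 1.17 and 0.74. Of all genes, 11.0%, 9.33% and 14.0% were higher past the limit in this comparison, with medians of -0.07 to -0.08. Cst3 alone of the 9 was lower in Arg1-positive monocytes in every library, at -0.48, -0.56 and -0.45. The p38KO difference of Ctsl was found in the Arg1-positive cells, at 0.60 (0.50 to 0.70), or 0.61 (0.52 to 0.71) without the cells holding the epithelial transcripts named above, while in cells without Arg1 it was -0.16 (-0.31 to -0.00). In these last cells Lgmn of p38KO was below vehicle, at -0.54 (-0.73 to -0.36), and -0.07 (-0.19 to 0.04) in the Arg1-positive ones. In p38KO, 10.3% and 13.8% of all genes passed the limit in cells with and without Arg1. The monocyte gate also held natural killer (NK) cell markers, summing to 367, 143 and 521 CPM, and B-cell markers, 52.7, 36.2 and 11.7. Their part in the values of the Arg1 split was not tested.

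Monocytes with more Fn1, or as much, as Ly6c2 also held more Ctsl (by 0.64, 0.68 and 0.75 in vehicle, p38i and p38KO) and more Lgmn (0.42, 0.61 and 0.67) than those with more Ly6c2, the marker of newly arrived inflammatory monocytes. Of all genes, 14.7%, 15.8% and 18.2% passed the limit between these cells. The share of the former was 59.4%, 69.0% and 51.5% of the gate. Within them Ctsl of p38KO was 0.53 above vehicle, and within the others 0.42.

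**Figure D4:**
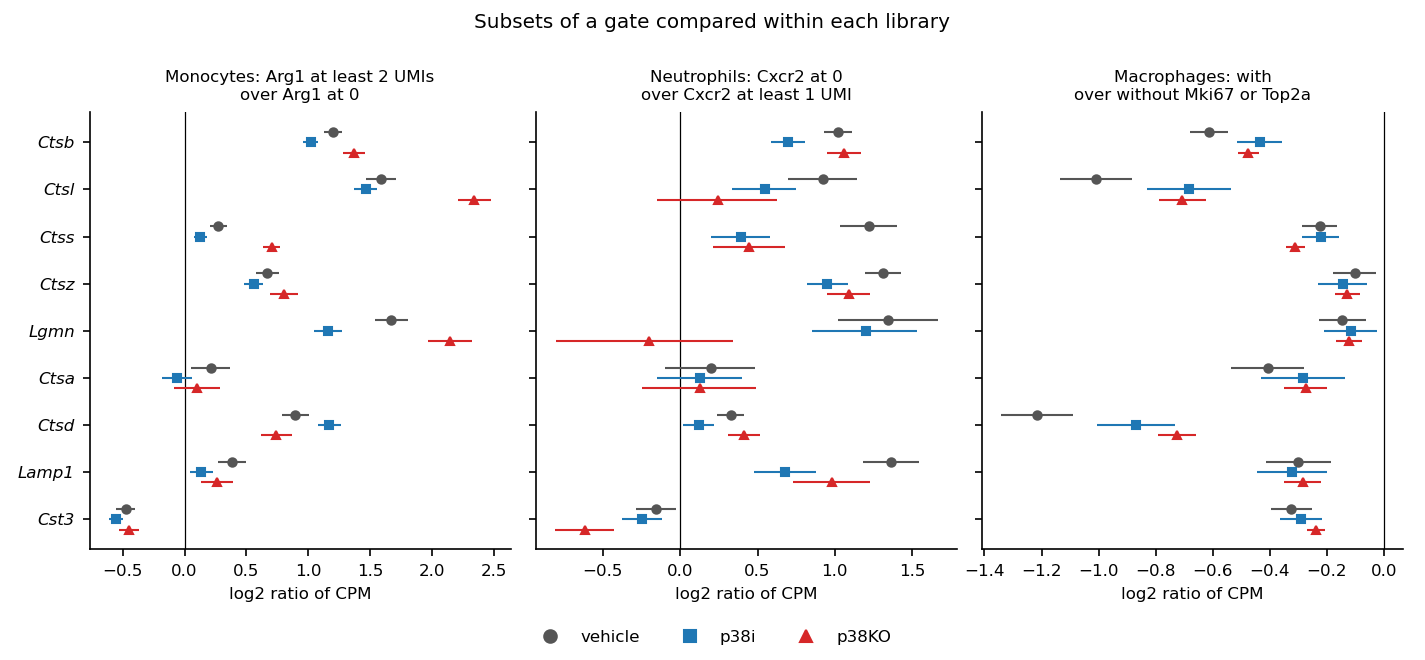
Log2 ratio of CPM (x axis, range set per panel) between parts of a gate for the 9 genes (y axis), within the vehicle (grey), p38i (blue) and p38KO (red) libraries, with exact 95% intervals: Arg1-positive over Arg1-negative monocytes, neutrophils without over those with Cxcr2, and macrophages with over those without Mki67 or Top2a. In the monocyte panel Ctsl lies at 1.46 to 2.35 and Cst3 left of 0, and in the macrophage panel all points lie left of 0.

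Neutrophils, the most numerous cells, had the highest cathepsin D level as CPM, a share of the UMIs of a gate. They were shallow, with a median of 2529, 2277.5 and 2180 UMIs per cell against 17604.5, 16826 and 13362 in macrophages. No member passed the limit in either comparison, against 11.7% of all genes in p38i and 12.8% in p38KO, and the medians were 0.02 and 0.10 with 0.08 and 0.09 over all genes. Ctsd (1306, 1129 and 1459 CPM) and Ctsb (895, 729 and 1016 CPM) lay below vehicle in p38i, at -0.21 (-0.26 to -0.16) and -0.30 (-0.36 to -0.24), and above it in p38KO, at 0.16 (0.11 to 0.21) and 0.18 (0.12 to 0.24). Ctsz did likewise, at -0.22 (-0.30 to -0.15) and 0.21 (0.13 to 0.29). Ctsl ran opposite, at 161, 220 and 119 CPM, 0.45 (0.33 to 0.58) above vehicle in p38i and below it in p38KO, at -0.44 (-0.60 to -0.27). Set directly against p38i, Ctsl in p38KO neutrophils was at -0.89, past the limit, as were 21.0% of all genes. The summed level of Ctss was above vehicle in both libraries, by 0.32 (0.21 to 0.43) and 0.43 (0.31 to 0.55). With cells thinned as above, 20.8%, 19.3% and 25.0% of neutrophils had a Ctss UMI, and without thinning 29.9%, 27.3% and 34.8%. The share of cells thus did not go with the summed level in p38i, while in p38KO both were above vehicle.

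Neutrophils without a Cxcr2 UMI, 13.7% to 16.9% of the gate and slightly shallower than the others, held more Ctsb, Ctsz, Ctsd, Lamp1 and Ctss than those with Cxcr2, a chemokine receptor of mature neutrophils, with intervals above 0 in all 3 libraries. Ctsz was higher by 1.31, 0.95 and 1.09 in vehicle, p38i and p38KO, at 1055, 773 and 1130 CPM against 425, 400 and 531. Ctsb was higher by 1.02, 0.70 and 1.06 and Lamp1 by 1.36, 0.68 and 0.98, while Cst3 was lower, at -0.15, -0.25 and -0.61. Lgmn was higher in vehicle and p38i (1.35 and 1.20) but not in p38KO, at -0.20 (-0.80 to 0.34). Of all genes, 22.1%, 16.8% and 17.9% were higher past the limit. The higher Ctss of p38i and p38KO was seen in Cxcr2-positive cells, at 183, 264 and 284 CPM and ratios of 0.53 (0.41 to 0.65) and 0.63 (0.50 to 0.77), where 12.7% and 13.5% of all genes passed the limit. Without Cxcr2 it was at 425, 347 and 387 CPM. The summed neutrophil markers of the gate were 191719, 211070 and 146740 CPM and its macrophage markers 270, 394 and 516 CPM; their part in these differences was not tested.

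DC were few, 41, 78 and 71 cells. In p38KO 2 members passed the limit, both lower, where 6.24% of all genes did so downward and 13.6% either way. Ctsd stood at 107, 141 and 45.2 CPM, -1.25 (-1.85 to -0.66) for p38KO, and Lgmn at 137, 126 and 70.8 CPM, -0.95 (-1.44 to -0.46). Both were low in p38KO alone, and 8 of the 9 members lay below vehicle there, 4 of them with intervals below 0. Their median was -0.29 against 0.01 over 2211 genes, of which 50.8% were above vehicle. In p38i none passed, against 11.5% of all genes. Cst3 itself was at 0.10 (0.06 to 0.13) in p38KO and -0.12 (-0.16 to -0.09) in p38i. The gate mixed kinds of DC. Cells with Xcr1 or Clec9a and no Ccr7, the cross-presenting type, were 21, 27 and 38 cells with 27331, 29790 and 29285 CPM of Cst3. Cells with Ccr7 were 3, 10 and 7. The remainder, with none of these genes, was 17, 41 and 26 cells with 7181, 7465 and 6591 CPM, and was not assigned to a kind. Siglech, another of the DC markers, was at 667, 696 and 735 CPM over the whole gate. The remainder held more Ctsd than the cross-presenting cells (229, 252 and 95.1 CPM against 47.1, 36.0 and 25.2), and its share of the gate was 41.5%, 52.6% and 36.6%. Within it, Ctsd of p38KO was at -1.27 (-2.02 to -0.53) on 66 counts over both libraries and Lgmn at -1.14 (-1.84 to -0.46) on 76. With every cell thinned to 1500 UMIs both lay above vehicle in the whole gate, at 0.21, on very few cells. Ctsd then had a UMI in 3 vehicle and 8 p38KO cells, and Lgmn in 4 and 9, too few to read a side of vehicle.

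In T cells the members with the highest levels were Ctsd and Cst3. In p38i, Ctsl (19.8 CPM in vehicle and 30.6 in p38i), Ctss (104 and 157) and Cst3 (261 and 373) passed the limit upward, at 0.63 (0.16 to 1.11), 0.60 (0.40 to 0.81) and 0.51 (0.38 to 0.64), against 5.24% of all genes upward and 7.33% either way. In p38KO Cst3 passed, at 453 CPM and 0.79 (0.67 to 0.92), against 8.18% upward and 11.6% either way, while Ctss was 0.41 (0.19 to 0.62) above vehicle and Ctsl, at 9.40 CPM, had too few counts to be counted. Ctsd was at 428, 371 and 428 CPM. Transcripts of other cells were present in this gate: macrophage markers summed to 97.6, 77.0 and 175 CPM, DC markers to 108, 103 and 181, monocyte markers to 1051, 1123 and 971, and neutrophil markers to 580, 523 and 475. Of the monocyte markers, Lyz2 was at 156, 333 and 78.4 CPM and Chil3 at 0.90, 19.8 and 0.72, higher in p38i alone, and the part of these transcripts in the member differences was not tested beyond the following split. The 100, 123 and 158 T cells without any UMI of C1qa, Lyz2, S100a8 or S100a9 had 198, 225 and 270 CPM of Cst3, ratios of 0.19 (-0.22 to 0.60) and 0.45 (0.08 to 0.82), and 54.2, 134 and 141 CPM of Ctss, ratios of 1.31 (0.63 to 2.02) on 91 counts and 1.38 (0.75 to 2.07) on 124. As point values the Cst3 ratios were smaller in these cells and the Ctss ratios larger. Only the Ctss interval of p38KO lay clear of that of the whole gate. Of all genes, 8.16% in p38i and 12.6% in p38KO passed the limit in these cells. The split set no limit on the DC markers. Their Ctsl came to 8 counts over both libraries in either comparison, too few to read. In the whole T gate each of these calls was lost under some other processing. Cst3 in p38i missed the limit with stricter gates, thinning, median-ratio scaling, mitochondrial and ribosomal protein genes left out, or the mean over cells, and Cst3 in p38KO with strict exclusivity (0.26), thinning, the deepest 5% of cells left out (0.30) or the mean over cells. Ctss in p38i missed it with thinning or the mean over cells, and Ctsl in p38i without the deepest 5% of cells or with the mean over cells.

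Over all kept cells the members were higher in p38KO, and much of that difference went with the makeup of the library. All 9 were above vehicle, as were 70.8% of 10867 genes, with a median of 0.48 against 0.17 over those genes. The limit was passed by 4 (Lgmn, Ctss, Cst3 and Ctsa), where 16.6% of all genes did so upward and 20.9% either way. Lgmn was at 398, 350 and 787 CPM, a ratio of 0.98 (0.94 to 1.02) for p38KO, and Ctss at 1056, 1142 and 1858, a ratio of 0.82 (0.79 to 0.84). Macrophages made up 4.55%, 3.94% and 14.6% of kept cells, and gave 58.6% of Lgmn counts in vehicle and 81.6% in p38KO. With each gate weighted to its share of vehicle UMIs, the p38KO ratios were 0.25 for Lgmn, 0.34 for Ctss, 0.17 for Cst3, 0.08 for Ctsa and for Ctsb, 0.07 for Ctsz, 0.02 for Lamp1 and -0.01 for Ctsl. Ctsd was the one member whose ratio was no smaller this way (0.05 as summed and 0.09 weighted). Neutrophils gave 41.1% of Ctsd counts in vehicle and macrophages 15.3%, against 28.5% and 38.5% in p38KO. The ungated cells were weighted as a single block. Their macrophage markers summed to 1291, 1486 and 5708 CPM and their Lgmn was at 189, 214 and 370 CPM. Differences in makeup within that block therefore remain in the weighted ratios. In p38i the ratios ran from -0.19 (Lgmn) to 0.17 (Ctsl) as summed, with none past the limit against 5.77% of all genes, and from -0.18 to 0.13 weighted. In sums over a whole library, more cells of a type and more RNA per cell cannot be told apart.

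**Figure D5:**
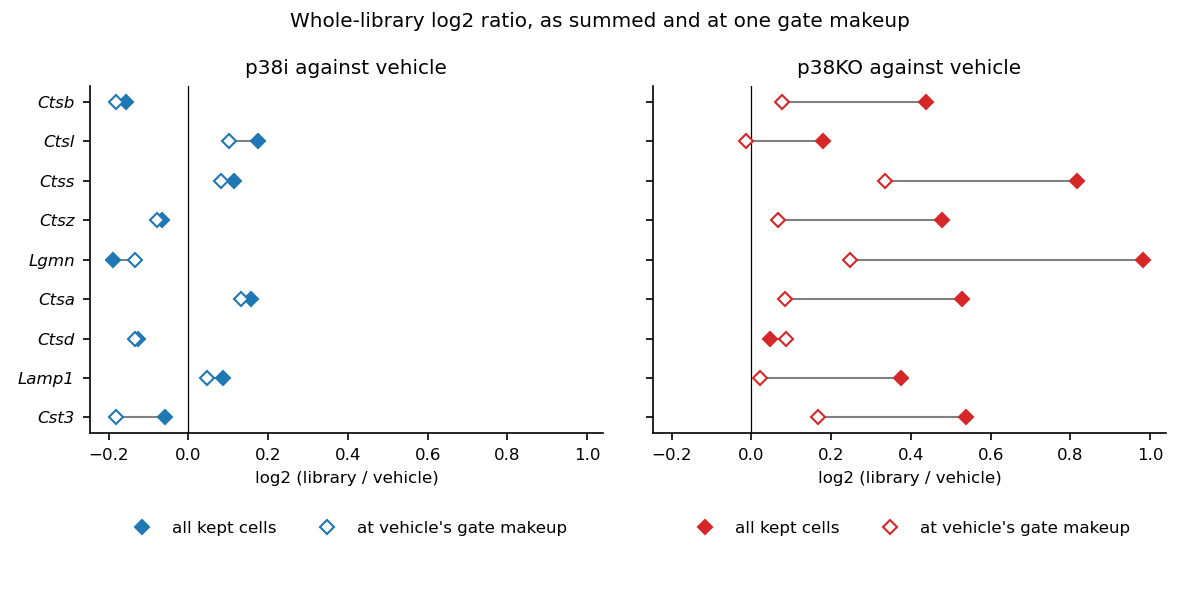
Log2 ratio to vehicle (x axis) of the 9 genes (y axis) over all kept cells, as summed (filled diamonds) and with each gate weighted to its share of vehicle UMIs (open diamonds), for p38i and p38KO. In p38KO the open diamonds of 8 genes lie nearer to 0, as for Lgmn (0.98 as summed, 0.25 weighted).

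Other genes of the lysosome were read in the same way, from 7 lists holding 101 genes. In p38KO macrophages, 13 of the 88 with enough counts were higher past the limit and 2 lower, with a median of 0.08 against 0.03 over all genes. Over all genes these shares were 9.52% and 3.08%. Of the hydrolases of the lysosome, 7 of 28 were higher and none lower, with a median of 0.23. Arsb, a sulfatase, was at 16.1 CPM in vehicle and 43.0 in p38KO (1.42). Of the other cathepsins, 2 of 5 were higher and none lower, with a median of 0.44: Ctse at 14.1 and 30.9 CPM (1.14), and Ctsf at 17.6 and 32.5 (0.89). Of the 15 membrane proteins, Npc1, a cholesterol exporter, was at 41.3 and 74.7 CPM (0.86) and Slc11a1, a metal transporter of phagosomes, at 152 and 95.4 (-0.67), with Cd63 the other one higher. None of 15 subunits of the proton pump (v-ATPase) and none of 8 activators and sorting receptors passed, with medians of -0.03 and -0.01, and 1 of 13 regulators did, Flcn (0.59). The inhibitor list had 1 of 4 higher, Serpinb6a at 29.0 and 46.8 CPM (0.69), and 1 lower, Stfa2l1 (-0.62). In p38i macrophages 2 of 81 genes were higher and 4 lower (2.43% and 3.84% over all genes), with a median of -0.06; Slc11a1 stood at 79.1 CPM there (-0.94), Stfa2l1 at 24.2 (-1.22), Glb1 at 25.1 (-0.56) and Tfec, a macrophage relative of TFEB, at 34.7 against 22.3 (0.64).

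In monocytes, 4 of 88 list genes were higher and 7 lower in p38i, and 6 of 81 higher and 4 lower in p38KO, with medians of 0.04 and -0.01. Over all genes, 3.45% were higher and 3.46% lower in p38i, and 6.98% and 2.64% in p38KO, so the shares of list genes that were higher were near the background. The stefins, cytosolic inhibitors of cathepsins that neutrophils make, were lower past the limit in both libraries: Stfa3 was at 26.5, 7.14 and 1.46 CPM, and Stfa2 at 69.7, 32.6 and 15.8. Neutrophil markers in that gate summed to 10260, 9287 and 3329 CPM, and their part in the stefin levels was not tested; the stefin genes are close copies among which reads can be split. Ctsw, a cathepsin of NK and cytotoxic T cells, was at 59.3, 17.1 and 119 CPM, beside summed NK markers of 367, 143 and 521 CPM in that gate. Acp5 (59.3, 98.9 CPM and 0.74 in p38i), Cd63 (60.9 and 136 CPM and 1.16 in p38KO) and Tfec (32.6 and 56.1 CPM and 0.78 in p38i) were among those higher.

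In neutrophils, 4 of 69 list genes were higher and 1 lower in p38i, and 5 of 68 higher and 4 lower in p38KO. Over all genes, 8.58% were higher and 3.15% lower in p38i, and 9.91% and 2.87% in p38KO. Stfa3 was at 161 and 68.1 CPM in vehicle and p38KO (-1.24). In DC, 5 of 45 were higher and none lower in p38KO, all of them hydrolases, among them Arsb (107 and 217 CPM, 1.01) and Hexa (99.8 and 157 CPM, 0.65), the opposite side of vehicle from Ctsd and Lgmn; 1 of 40 was higher (Atp6v1a) and 1 lower in p38i. Over all genes in DC, 7.37% were higher and 6.24% lower in p38KO, and 6.31% and 5.16% in p38i. In T cells, 1 of 64 was higher (Dnase2a, 1.17) and 1 lower in p38i, and 1 of 63 higher and 3 lower in p38KO, where 5.24% and 2.09% of all genes were higher and lower in p38i and 8.18% and 3.42% in p38KO. Cd63 was the one higher in p38KO, at 6.61 and 31.1 CPM (2.23), in a library whose T gate also held mast-cell transcripts (107 CPM summed over 4 markers against 20.4 in vehicle), and Cst7, an inhibitor that cytotoxic cells express, was at 210 and 98.3 CPM (-1.10).

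The genes lie on 7 chromosomes of GRCm38 (GENCODE M21): Ctsa at chr2:164832873-164841032, Cst3 at chr2:148871722-148875692, Ctsz at chr2:174427493-174439039, Ctss at chr3:95526786-95556403, Ctsd at chr7:142375911-142388038, Lamp1 at chr8:13159161-13175338, Lgmn at chr12:102394084-102439813, Ctsl at chr13:64359337-64370890 and Ctsb at chr14:63122462-63145923. All are protein coding. Lgmn and Cst3 overlap no other annotated gene, Ctsd, Ctsl and Ctss each overlap a gene model or pseudogene on their own strand, and the 3′ tag counts of these 3 could include reads of the overlapping model.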

How the data were processed

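Live CD45+ cells of 4T1-luc tumors from 3 mice pooled per group were sequenced as 1 library for each of vehicle, p38i and p38KO, and groups were taken from the labels. The deposited matrices hold raw UMI counts per gene and barcode that the authors made with Cell Ranger 6.0.0 per the file headers; the submitters' processing notes also name mm10, R 4.2.1 and Seurat 5. No doublet caller was run here.

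Cells with at least 1500 UMIs, 300 genes and at most 20% mitochondrial counts were gated on raw counts: T cells (Cd3e at least 1), macrophages (C1qa at least 3), DC (Flt3 at least 1), monocytes (Ly6c2 plus Fn1 at least 2 and above Csf3r plus Cxcr2) and neutrophils (the reverse), with at most 1 C1qa UMI outside macrophages. Counts were summed per gate and library and scaled to CPM, by UMI and not by transcript length, with exact Poisson 95% intervals. Log2 ratios carry exact conditional binomial intervals. Intervals cover counting error only: with 1 library per group there is no estimate of the spread between mice or sorts, no test was made, and library and condition cannot be told apart. The p38i and p38KO comparisons share the vehicle library. Kept cells held 20795195 to 24374173 UMIs per library.

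A gene counts as past the size limit at a log2 ratio of 0.5 either way with at least 100 counts over both libraries; members are read against the share of all genes past it. All members are named; of each other list, up to 2 genes per gate and comparison with the widest log2 ratio; and the genes closest in profile, log2(CPM + 10) over the sums. Members and lists were chosen with earlier results of these data known, and the C1qa bands, cell subsets and T-cell split after the data were seen. Alternatives were no cell filter, stricter gates, strict exclusivity, thinning to 1500 UMIs, other scalings, per-cell means and leaving out the deepest 5% of cells. Positions come from GENCODE M21 (32235 of 32285 IDs matched) and promoters from RefSeq GRCm38.p6. Scripts (Python 3.11.15, numpy 2.4.6, pandas 2.3.3, scipy 1.17.1, matplotlib 3.10.9) were checked on simulated data. Values of some genes counted in the lists are not reported here.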

Additional observations from a re-analysis of the deposited data

Results flagged for a closer look

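Several genes lay on opposite sides of vehicle in different gates of the same library, with intervals that excluded 0 on both sides and log2 ratios at least 0.5 apart. The difference between gates was not tested, since each gate held 1 library per group. Ctsl in p38KO was at -0.35 in macrophages, -0.32 in DC and -0.44 in neutrophils but 0.45 in monocytes, where the mean of log2(CPM + 1) over cells gave -0.47. In p38i, Ctsl was at -0.19 in macrophages but 0.45 in neutrophils and 0.63 in T cells. Ctsd in p38KO was at 0.21 in macrophages and 0.16 in neutrophils but -1.25 in DC. Lgmn in p38KO was at 0.30 in macrophages and -0.95 in DC, and Ctsb at 0.22 and -0.29. Cst3 in p38i was at -0.12 in DC and 0.51 in T cells. The DC values rest on 41 vehicle and 71 p38KO cells.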

How the results depend on the processing

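No paired analysis was possible because each group was 1 library, and for the same reason no replicate could be left out. Of the 7 member values past the size limit within a gate, Cst3 in p38KO macrophages was past it under all 8 alternatives. All 7 were past it without the cell filter, 6 with stricter gates, 6 with strict exclusivity, 6 with median-ratio scaling, 6 without mitochondrial and ribosomal protein genes, 5 without the deepest 5% of cells, 2 after thinning to 1500 UMIs and 2 with the mean of log2(CPM + 1) over cells. Of the 82 member values within the limit, 9 passed it with stricter gates, 8 after thinning (among them Ctsl and Ctss in p38KO macrophages), 2 with strict exclusivity (among them Ctsl in p38KO monocytes), 1 with median-ratio scaling, 1 without the deepest 5% of cells and 19 with the mean over cells, 4 of these in monocytes and 4 in neutrophils. The sign changed for 4 called ratios. After thinning, Ctsd and Lgmn in p38KO DC were both at 0.21, where too few cells kept a UMI to read a sign. With the mean over cells, Ctsl and Cst3 in p38i T cells were at -0.048 and -0.73. The cause was not tested.

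The median log2 ratio of the 9 genes moved beyond its interval in these cases. After thinning it was 0.0033 in p38i macrophages, 0.071 in p38i monocytes and -0.015 in p38KO DC. With the mean over cells it was 0.28 and 0.31 in p38i and p38KO macrophages, 0.18 and -0.41 in monocytes, -0.28 in p38i neutrophils and -0.22 in p38i T cells. With strict exclusivity it was 0.14 in p38KO macrophages, 0.060 and -0.011 in p38i and p38KO monocytes and -0.11 in p38i neutrophils. With stricter gates it was -0.20 and -0.52 in p38i and p38KO DC, 0.20 in p38i neutrophils and 0.40 in p38i T cells, and with median-ratio scaling -0.15 in p38KO monocytes.

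With at least 20 counts in place of 100, the share of all genes past the limit in p38i and p38KO was 15.8% and 21.0% in macrophages, 15.7% and 20.4% in monocytes, 28.3% and 30.0% in DC, 23.1% and 24.0% in neutrophils and 16.2% and 20.9% in T cells. Unthinned, the median share of cells with a UMI over the 9 genes in vehicle, p38i and p38KO was 95.4%, 98.9% and 97.3% in macrophages, 92.8%, 93.4% and 90.2% in monocytes, 80.5%, 70.5% and 70.4% in DC, 34.6%, 36.9% and 34.8% in neutrophils and 33.0%, 28.5% and 36.2% in T cells, against 75.3%, 74.6% and 84.2% in macrophages and 12.0%, 12.2% and 13.1% in T cells when thinned.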

Other observations

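Cells in no gate held a large share of Cst3: 38.7%, 23.1% and 23.3% of all Cst3 counts in the vehicle, p38i and p38KO libraries, at 5122, 2930.1 and 4614 CPM. Their summed DC markers were 185, 132 and 313 CPM, and their mast-cell markers 79.7, 134 and 1296 CPM.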
